A study of Homo sapiens with 6 samples.

Results

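A set of 10 genes that mark the epithelial-mesenchymal transition (EMT) was followed in DU145 prostate cancer cells. They were taken by their symbols, 10 of the 19727 genes in the expression table. The rule used no expression value, but the set was chosen with earlier results of these data known. CDH1 and EPCAM mark epithelial cells, CDH2, VIM and FN1 mark mesenchymal cells, and ZEB1, ZEB2, SNAI1, SNAI2 and TWIST1 are transcription factors of the transition. DU145 is an established epithelial prostate cancer line that grows without androgen. The 3 lentivirus-circCSPP1 libraries came from a stable line that overexpresses circCSPP1, a circular RNA made from exons of the CSPP1 gene, and their genotype is labelled circCSPP1 overexpression. The 3 lentivirus-NC libraries came from a stable line carrying the control vector, and their genotype is labelled normal. Both lines went through lentiviral transfection and puromycin selection, and 1 line per vector is described, so the vector and the line cannot be told apart. No source used here says whether the replicates were separate cultures, and the p-values therefore measure only the spread between these libraries, which may be technical. The comparison bears on whether overexpression of circCSPP1, which the study examined for its part in migration and invasion, goes with a different level of EMT marker transcripts.

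In the epithelial-mesenchymal transition, epithelial cells loosen their cell-cell junctions, lose E-cadherin and take on a motile, spindle-shaped form with a vimentin cytoskeleton and a fibronectin-rich matrix. The switch is driven by repressors of the ZEB, SNAI and TWIST families, of which the ZEB and SNAI proteins bind E-box sequences in the promoters of E-cadherin and other epithelial genes. MicroRNAs of the miR-200 family act in the opposite direction by repressing ZEB1 and ZEB2, which in turn repress the miR-200 genes. Carcinoma cells often hold intermediate states in which epithelial and mesenchymal genes are expressed together.

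Polyadenylated RNA was sequenced in pairs of reads, and levels were given as FPKM (fragments per kilobase of transcript, scaled to the depth of the library), which is per length and can be compared between genes. The depth, estimated from the steps between low values, was 28600000 to 36400000 fragments per library and overlapped between the groups. The 20 most abundant genes took 14.9% to 15.2% of all FPKM with lentivirus-NC and 12.0% to 12.1% with lentivirus-circCSPP1. CSPP1, the host gene of circCSPP1, read 9.11 to 10.08 FPKM in the former and 14.47 to 22.76 in the latter (log2 fold change 0.94, SE 0.17, adjusted p = 0.016 by limma), and a value per gene does not separate the circular from the linear form. By qRT-PCR the study reported that its vectors changed circCSPP1 and not CSPP1 mRNA in DU145 cells. Which form the rise in polyadenylated RNA reflects was not tested. Keratins of simple epithelia were abundant, with summed levels of 3860 to 4020 FPKM in lentivirus-NC and 3030 to 4020 in lentivirus-circCSPP1. Of the androgen-responsive luminal genes, KLK2 and KLK3 were listed at 0 in every library. Of the marker genes of other cell types, CD3E and LUM were listed at 0 throughout, the 6 fibroblast genes summed to 2.98 to 4.39 FPKM in lentivirus-NC and 1.35 to 2.09 in lentivirus-circCSPP1, and the 3 endothelial genes to at most 0.62 in any library. The 3 leukocyte genes summed to 43.9 to 49.7 and 35.8 to 50.4 FPKM, of which PTPRC was at most 0.08 and the rest CD68. The part of these lists in the results was not tested. In lentivirus-circCSPP1 replicate 1 the departure of each gene from the mean of the other libraries of its group rose with transcript GC content. The Spearman correlation across 7663 genes was 0.807, while for replicates 2 and 3 it was -0.753 and -0.555. Replicate 1 is part of the mean against which replicates 2 and 3 were set, so these values are not separate.

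The levels of the 10 genes spanned the range from undetected to among the most abundant transcripts. In the lentivirus-NC libraries the order by mean FPKM was VIM (1120), EPCAM (20.4), CDH1 (10.9), FN1 (6.79), ZEB1 (4.02), SNAI1 (3.80), SNAI2 (0.41), ZEB2 (0.373), and then CDH2 and TWIST1, both listed at 0. The ranges of ZEB1 and SNAI1 overlapped, as did those of SNAI2 and ZEB2, so the order within these pairs was not resolved. In the lentivirus-circCSPP1 libraries the order was VIM (1090), EPCAM (12.6), ZEB1 (8.22), FN1 (3.96), CDH1 (3.01), SNAI1 (2.51), SNAI2 (0.98) and ZEB2 (0.273), with CDH2 and TWIST1 at or near 0. There the ranges of EPCAM and ZEB1 overlapped, and those of CDH1 and SNAI1. CDH1 thus stood above ZEB1 in every lentivirus-NC library and below it in every lentivirus-circCSPP1 library.

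**Figure D1:**
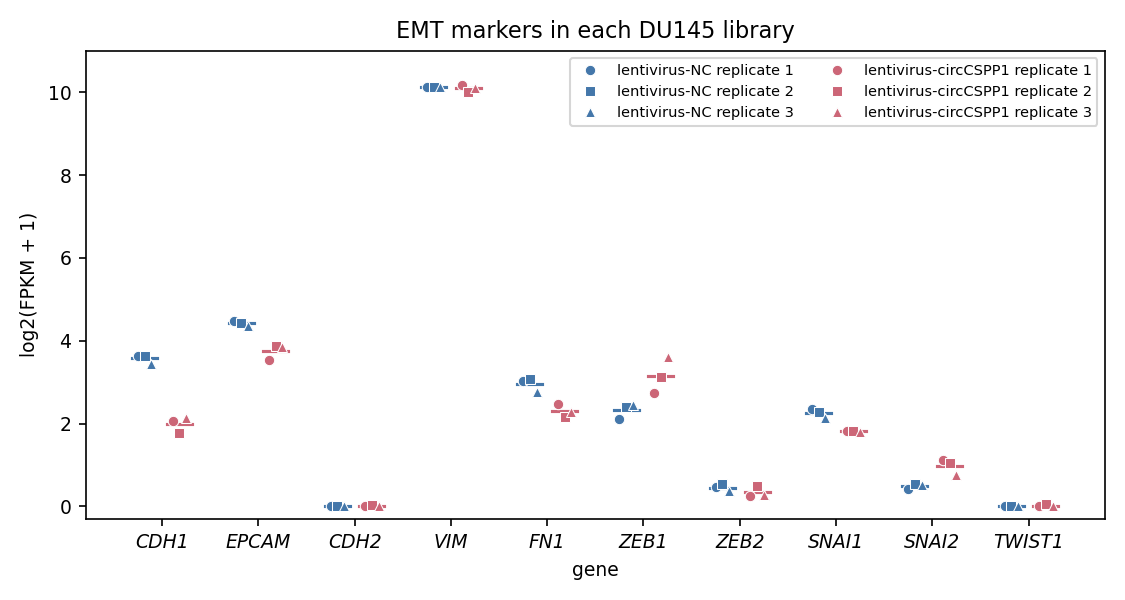
Level of each of the 10 EMT markers, as log2(FPKM + 1) on the vertical axis, in the 3 lentivirus-NC libraries (blue) and the 3 lentivirus-circCSPP1 libraries (red), with replicates 1, 2 and 3 as circle, square and triangle and the group mean as a bar. CDH1, EPCAM, FN1 and SNAI1 lie lower and ZEB1 and SNAI2 higher in all 3 lentivirus-circCSPP1 libraries, VIM lies near 10 in all 6, and CDH2 and TWIST1 lie at or near 0.

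Differences between the groups were tested by limma on log2(FPKM + 1) for 12322 genes, those averaging 1 FPKM or more, with Benjamini-Hochberg adjustment over all of them. For a gene with a low level, adding 1 makes the log2 fold change smaller than the change in FPKM. Of the 10 members, 6 passed the filter and were tested. CDH1, EPCAM, FN1 and SNAI1 fell in lentivirus-circCSPP1, and VIM and ZEB1 did not reach an adjusted p of 0.05. Across all tested genes 11.4% were called, 6.66% as lower and 4.69% as higher, and the median log2 fold change was -0.03. No tested member was called higher by limma (0 of 6), while at an unadjusted p under 0.05 there was 1 higher (ZEB1) and 4 lower, and without moderation of the variance 2 were called, both lower. The count of 4 called members became 1 without any of the lentivirus-NC replicates or without lentivirus-circCSPP1 replicate 3, 2 without lentivirus-circCSPP1 replicate 2, and 5 without its replicate 1, in which ZEB1 was also called. The study set p under 0.01 and a log2 fold change of 1.5 or more in either direction. It does not say whether p was adjusted. Applied to the unadjusted limma p and fold change here, these thresholds called 1 member, CDH1, against 24 genes or 0.195% of those tested. These are not the study's own calls. The groups did not overlap in 5 of the 6 tested members, where 36.4% of all tested genes did not overlap. SNAI2, ZEB2, CDH2 and TWIST1 had a mean under 1 FPKM and are given by their values. In bulk RNA, fewer cells that express a gene and less of its RNA per cell cannot be told apart.

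**Figure D2:**
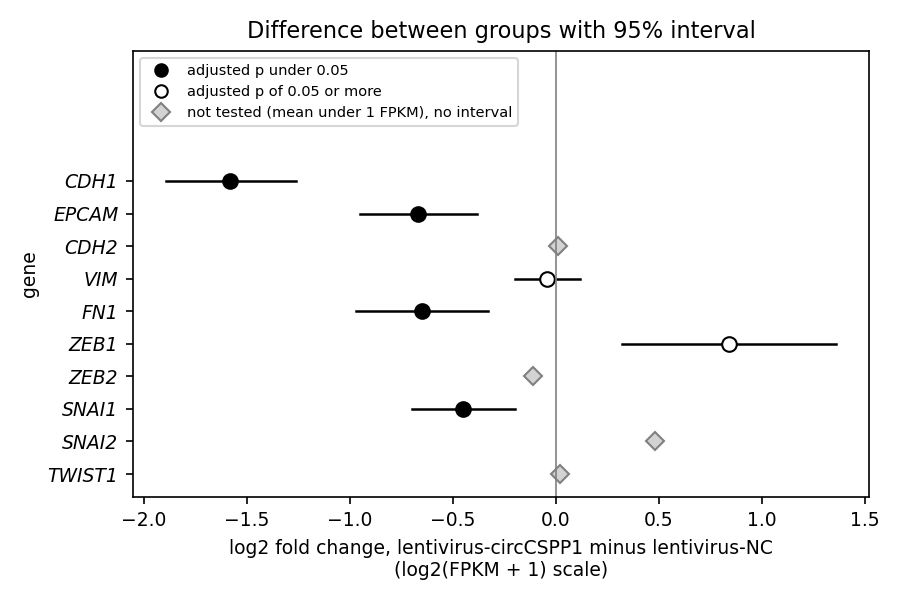
Log2 fold change, lentivirus-circCSPP1 minus lentivirus-NC on the log2(FPKM + 1) scale, on the horizontal axis for each EMT marker, with the 95% interval as a line. CDH1 lies furthest to the left at -1.58, EPCAM, FN1 and SNAI1 follow with intervals below 0, VIM spans 0, ZEB1 lies at 0.84 with an open symbol for an adjusted p of 0.054, and grey diamonds mark the 4 untested genes.

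CDH1 (ENSG00000039068, GRCh38 chr16:68737225-68835548, plus strand) encodes E-cadherin, the adhesion receptor of epithelial adherens junctions. It read 11.49, 11.43 and 9.81 FPKM with lentivirus-NC (replicates 1, 2 and 3, the order used for all values by library) and 3.18, 2.44 and 3.41 FPKM with lentivirus-circCSPP1. The groups were well apart, and the lowest control library was still far above the highest overexpressing one. The mean was 10.9 ± 0.953 FPKM (SD, n = 3) against 3.01 ± 0.507 (SD, n = 3), 3.62-fold lower, and the log2 fold change was -1.58 (SE 0.13, 95% interval -1.89 to -1.26, limma adjusted p = 0.0016). Only 8 of the 12322 tested genes had a lower log2 fold change. CDH1 passed an adjusted p of 0.05 in all 17 alternatives run on it, with log2 fold changes of -1.86 to -1.47 and an adjusted p of at most 0.019. An estimated 413 to 1746 fragments per library lay behind these values, so counting error was small beside the difference.

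EPCAM (ENSG00000119888, chr2:47345158-47387601, plus strand) encodes a homophilic adhesion molecule of the epithelial surface. Its level was 21.31, 20.45 and 19.54 FPKM with lentivirus-NC and 10.56, 13.66 and 13.44 FPKM with lentivirus-circCSPP1. All 3 overexpressing libraries were lower, with replicate 1 the lowest, and the groups did not overlap. The mean fell from 20.4 ± 0.885 to 12.6 ± 1.73 FPKM (SD, n = 3 each), a log2 fold change of -0.67 (SE 0.12, 95% interval -0.95 to -0.38, limma adjusted p = 0.017). The level of EPCAM over that of CDH1 was 1.79 to 1.99 in the lentivirus-NC libraries and 3.32 to 5.60 in the lentivirus-circCSPP1 libraries, and the difference between the changes of these genes was not tested. The direction held in each of the 17 alternatives and the call in 12. By limma the adjusted p was 0.084 without lentivirus-NC replicate 1, 0.084 without replicate 2, 0.063 without replicate 3, 0.052 without lentivirus-circCSPP1 replicate 3 and 0.056 without moderation.

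Of the mesenchymal genes, vimentin was already abundant in the control line and differed little, fibronectin fell, and N-cadherin was near the limit of detection. VIM (ENSG00000026025, chr10:17228259-17237593, plus strand), the type III intermediate filament of mesenchymal cells, read 1124.32, 1122.46 and 1107.17 FPKM with lentivirus-NC and 1157.68, 1018.04 and 1097.89 FPKM with lentivirus-circCSPP1. The groups overlapped, with the highest and the lowest library both in lentivirus-circCSPP1. The log2 fold change was -0.04 (SE 0.068, limma adjusted p = 0.77), and its 95% interval of -0.20 to 0.12 bounds the size of a difference in either direction. Quantile normalization moved it to -0.17 (limma adjusted p = 0.072), median-ratio scaling to 0.0058, and leaving out lentivirus-circCSPP1 replicate 1 or 2 to -0.08 or 0.012, none past the test.

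FN1 (ENSG00000115414, chr2:215360440-215436172, minus strand) encodes fibronectin, a matrix glycoprotein that rises in many forms of the transition. It read 7.22, 7.37 and 5.77 FPKM with lentivirus-NC and 4.54, 3.47 and 3.87 FPKM with lentivirus-circCSPP1. The overexpressing libraries were again all lower, without overlap. FN1 fell from a mean of 6.79 ± 0.884 to 3.96 ± 0.541 FPKM (SD, n = 3 each), a log2 fold change of -0.65 (SE 0.14, 95% interval -0.97 to -0.33, limma adjusted p = 0.026). Its direction held in all 17 alternatives and its call in 10. The adjusted p by limma was 0.11 without lentivirus-NC replicate 1, 0.12 without replicate 2, 0.051 without replicate 3, 0.057 without lentivirus-circCSPP1 replicate 2, 0.094 without its replicate 3, 0.052 after quantile normalization and 0.074 without moderation. CDH2 (ENSG00000170558, chr18:27950966-28177446, minus strand) encodes N-cadherin, which replaces E-cadherin in many mesenchymal cells. It was listed at 0 in 5 libraries and at 0.03 FPKM, an estimated 4 fragments, in lentivirus-circCSPP1 replicate 2, so N-cadherin transcript was not detectable at this depth in the other 5.

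ZEB1 (ENSG00000148516, chr10:31318495-31529814, plus strand) encodes a zinc finger repressor of CDH1. Its level was 3.31, 4.25 and 4.50 FPKM with lentivirus-NC and 5.66, 7.74 and 11.27 FPKM with lentivirus-circCSPP1. Every overexpressing library was above every control library, but the overexpressing libraries differed widely among themselves, from replicate 1 as the lowest to replicate 3 as the highest. The means were 4.02 ± 0.627 and 8.22 ± 2.84 FPKM (SD, n = 3 each), a ratio of 2.05, and the log2 fold change was 0.84 (SE 0.22, 95% interval 0.32 to 1.36). With an adjusted p of 0.054 by limma it did not pass, although only 127 tested genes had a higher log2 fold change. It passed in 5 of 17 alternatives, with limma adjusted p of 0.042 after median-ratio scaling, 0.028 after quantile normalization, 0.026 with the replicate number as a block, 0.011 after a loess correction for transcript GC content and length, and 0.0098 without lentivirus-circCSPP1 replicate 1 (log2 fold change 1.05). Over all alternatives the log2 fold change stayed between 0.61 and 1.05 and the adjusted p reached 0.18. The longest ZEB1 transcript has a GC content of 38.5%. The lowest of the 3 overexpressing libraries was replicate 1, in which levels relative to the other overexpressing libraries rose with GC content. The part of GC content in the ZEB1 value was not tested beyond the loess correction.

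ZEB2 (ENSG00000169554, chr2:144364364-144524583, minus strand), the paralog of ZEB1 and likewise a repressor of CDH1, was low throughout. It read 0.38, 0.45 and 0.29 FPKM with lentivirus-NC and 0.19, 0.41 and 0.22 FPKM with lentivirus-circCSPP1, an estimated 58 to 136 fragments. The groups overlapped. The difference was -0.11 on the log2(FPKM + 1) scale, and with no filter on low values its adjusted p by limma was 0.45. In GENCODE 29 the antisense genes ZEB1-AS1, ZEB2-AS1 and VIM-AS1 overlap parts of ZEB1, ZEB2 and VIM, and whether fragments were assigned by strand is not given in the sources used here, so reads of these pairs could not be separated.

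**Figure D3:**
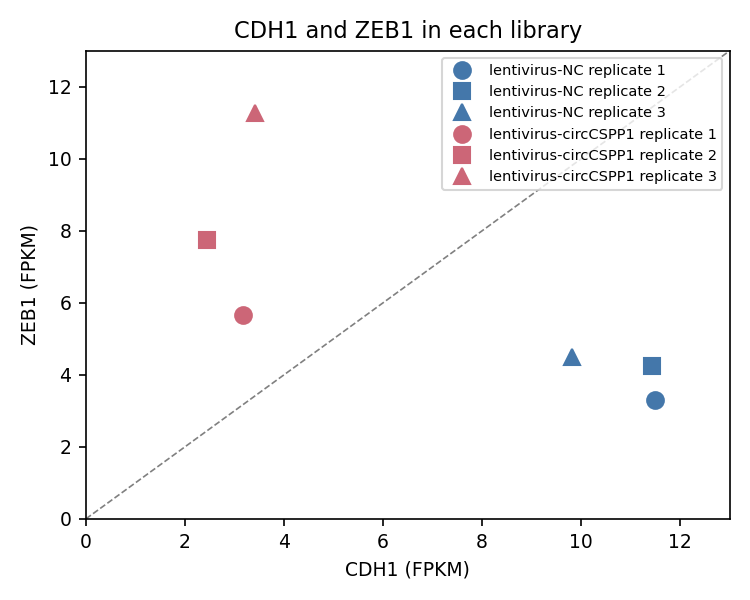
FPKM of CDH1 on the horizontal axis against FPKM of ZEB1 on the vertical axis, with 1 point for each library and a dashed line of equal levels. The lentivirus-NC libraries lie below the line, at CDH1 of 9.81 to 11.49 and ZEB1 of 3.31 to 4.50, and the lentivirus-circCSPP1 libraries above it, at CDH1 of 2.44 to 3.41 and ZEB1 of 5.66 to 11.27.

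The ratio of ZEB1 to CDH1 was also taken within each library. It was 0.288, 0.372 and 0.459 in lentivirus-NC replicates 1, 2 and 3 and 1.78, 3.17 and 3.30 in lentivirus-circCSPP1 replicates 1, 2 and 3. The ratio of VIM to CDH1 was 97.9, 98.2 and 113 in the lentivirus-NC replicates and 364, 417 and 322 in the lentivirus-circCSPP1 replicates. Both ratios were higher in all 3 overexpressing libraries, and a two-sided exact permutation test of 3 against 3 cannot give a p below 0.10. CDH1, which fell, is the divisor of both ratios, so their separation is not a result apart from that of CDH1. VIM itself overlapped between the groups.

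The study examined miR-520h as a partner of circCSPP1, and ZEB1 and ZEB2 are known targets of the miR-200 family, so the 3′ UTRs of the 10 genes were searched for the 7-base matches to these microRNAs. The mature sequences below are from RefSeq (GRCh38.p14), with the seed, bases 2 to 8, in capitals. They are shown because the seeds fall into 3 groups that differ in which EMT genes they match.
hsa-miR-520h: aCAAAGUGcuucccuuuagagu
hsa-miR-200b-3p: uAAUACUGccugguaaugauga
hsa-miR-200c-3p: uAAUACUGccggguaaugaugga
hsa-miR-429: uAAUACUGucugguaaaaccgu
hsa-miR-141-3p: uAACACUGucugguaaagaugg
hsa-miR-200a-3p: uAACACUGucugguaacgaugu

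The match to the miR-520h seed, CACTTTG, was in the 3′ UTR of 0 of the 10 EMT markers, while 25.3% of the 12228 tested genes with an annotated 3′ UTR held it. The match shared by miR-200b, miR-200c and miR-429, CAGTATT, occurred 6 times in ZEB1, 5 times in ZEB2, 2 times in FN1 and 1 time in SNAI2, and was in 18.5% of tested genes. The match shared by miR-141 and miR-200a, CAGTGTT, occurred 3 times in ZEB1 and 4 times in ZEB2, and was in 21.0% of tested genes. Longer 3′ UTRs hold more matches of any kind, and those of ZEB1 and ZEB2 were 2549 and 5370 nt long. The first 3 of the 9 ZEB1 matches along the 3′ UTR, which include both seed groups, are printed from the GENCODE 29 transcript (GRCh38), with the match in capitals.
ZEB1 match to miR-200b, miR-200c and miR-429, chr10:31527622-31527651, plus strand: ttttatcttatCAGTATTatcactcttatg
ZEB1 match to miR-200b, miR-200c and miR-429, chr10:31527716-31527745, plus strand: taaatccgcttCAGTATTttattatgtttt
ZEB1 match to miR-141 and miR-200a, chr10:31528035-31528064, plus strand: atcatcagaatCAGTGTTtgtgattgtgtt

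A match of letters describes the sequence and does not show binding, and no microRNA was measured in these libraries. Of the genes with a match shared by miR-200b, FN1 fell, ZEB1 did not pass the test, and ZEB2 and SNAI2 were under the filter. VIM, EPCAM, CDH1 and SNAI1 held no match to any of the 3 seed groups.

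Among the SNAI and TWIST factors, SNAI1 fell by a small amount, SNAI2 was higher at a low level, and TWIST1 was near 0. SNAI1 (ENSG00000124216, chr20:49982999-49988886, plus strand) encodes Snail, a zinc finger repressor of CDH1 whose protein is short-lived. It read 4.14, 3.87 and 3.39 FPKM with lentivirus-NC and 2.51, 2.55 and 2.47 FPKM with lentivirus-circCSPP1. The overexpressing libraries were close together and all below the controls. The mean fell from 3.80 ± 0.380 to 2.51 ± 0.0400 FPKM (SD, n = 3 each), a log2 fold change of -0.45 (SE 0.11, 95% interval -0.70 to -0.20, limma adjusted p = 0.039). An estimated 119 to 208 fragments per library lay behind it, and the call held in 8 of 16 alternatives. The limma adjusted p was 0.17 without lentivirus-NC replicate 1, 0.15 without replicate 2, 0.084 without replicate 3, 0.069 without lentivirus-circCSPP1 replicate 2, 0.13 without its replicate 3, 0.055 with no filter, 0.083 after quantile normalization and 0.088 with the replicate number as a block.

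SNAI2 (ENSG00000019549, chr8:48917604-48921740, minus strand) encodes Slug, the closest relative of Snail and also a repressor of epithelial genes. It read 0.33, 0.46 and 0.44 FPKM with lentivirus-NC and 1.18, 1.07 and 0.69 FPKM with lentivirus-circCSPP1. All 3 overexpressing libraries were higher, without overlap, at means of 0.41 ± 0.07 and 0.98 ± 0.257 FPKM (SD, n = 3 each), a ratio of 2.39. Estimated fragments numbered 23 to 91 per library. SNAI2 missed the filter of 1 FPKM and was not tested with the other genes. When all 17116 genes that were not 0 in every library were tested, of which 8.20% were called, its log2 fold change was 0.48 with a limma adjusted p of 0.041. That call did not hold without lentivirus-NC replicate 1 (0.16), 2 (0.14) or 3 (0.13), without lentivirus-circCSPP1 replicate 1 (0.056) or 2 (0.12), or with the replicate number as a block (0.089).

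SNAI1 and SNAI2 thus differed in opposite directions, and the level of SNAI1 over that of SNAI2 was 12.5, 8.41 and 7.70 in lentivirus-NC replicates 1, 2 and 3 and 2.13, 2.38 and 3.58 in lentivirus-circCSPP1 replicates 1, 2 and 3. SNAI1 remained the more abundant of the pair in all 6 libraries. TWIST1 (ENSG00000122691, chr7:19020991-19117672, minus strand), a basic helix-loop-helix factor of mesoderm and of the transition, was listed at 0 in 5 libraries and at 0.04 FPKM, an estimated 2 fragments, in lentivirus-circCSPP1 replicate 2. That library is also the single one with a CDH2 value above 0.

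**Figure D4:**
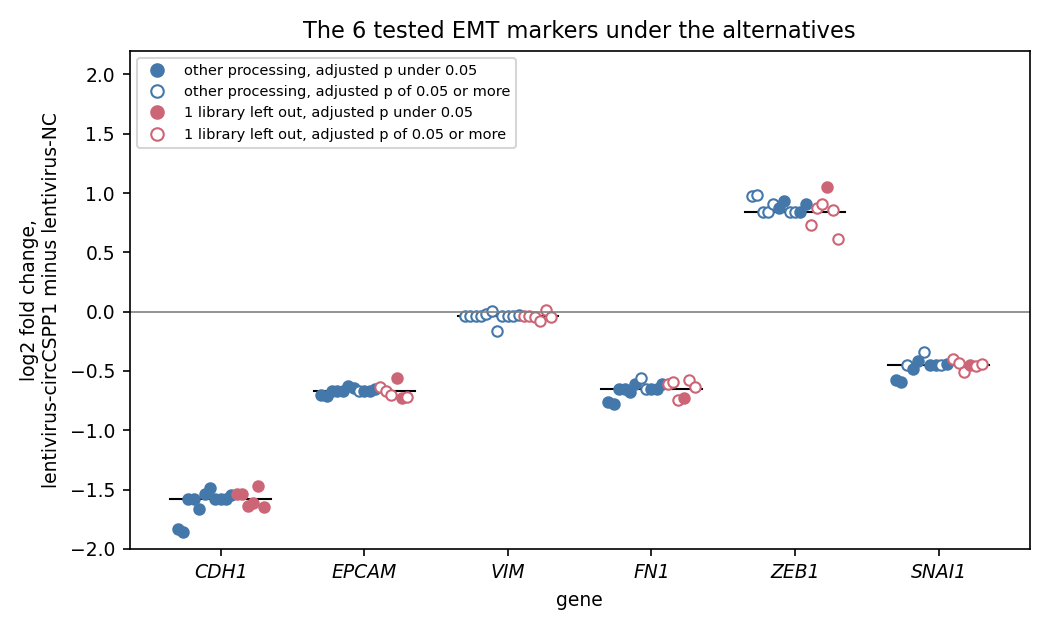
Log2 fold change of the 6 tested EMT markers on the vertical axis under each alternative, with other processing in blue, 1 library left out in red, filled symbols for an adjusted p under 0.05 and a black bar for the reported value. CDH1 is filled throughout between -1.86 and -1.47, EPCAM, FN1 and SNAI1 keep their direction with filled and open symbols, VIM lies around 0, and ZEB1 stays between 0.61 and 1.05 with 5 filled symbols.

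To see how far the genes around these markers followed them, 109 other genes of the transition were grouped by role, of which 79 were tested. In these lists 15 genes were called, 12 lower and 3 higher, which is 19.0% beside 11.4% of all tested genes, and the median log2 fold change was -0.18 beside -0.03. The lists were chosen with earlier results of these data known, so setting them beside all tested genes is a description and not a test. The 6 genes that kept their call under every alternative run on them included CDH3, CLDN1, TJP3, CGN and MUC1, and the other 9 lost it when at least 1 library was left out. The count of 15 became 7, 6 and 9 without lentivirus-NC replicates 1, 2 and 3, 33 without lentivirus-circCSPP1 replicate 1 and 9 without its replicate 3.

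Among the cadherins and catenins, 6 of 11 genes were tested, 1 fell and 1 rose (33.3% called), and the median was -0.25. Without lentivirus-circCSPP1 replicate 1 the calls were 3 lower and 1 higher. CDH3, which encodes the P-cadherin of basal epithelia, read 110.98, 105.18 and 107.60 FPKM with lentivirus-NC and 40.55, 30.62 and 33.44 FPKM with lentivirus-circCSPP1. The groups were far apart, and the log2 fold change of CDH3, -1.61 (SE 0.11, limma adjusted p = 0.0011), was close to that of CDH1. CDH3 (chr16:68636189-68722616, plus strand) lies shortly before CDH1 on the same strand. Whether both genes changed separately or through a local difference between the lines was not tested. CTNNA1, which encodes the α-catenin that links cadherins to actin, rose from 469 ± 16.4 to 620 ± 15.8 FPKM (SD, n = 3 each; log2 fold change 0.40, limma adjusted p = 0.011). Leaving out lentivirus-NC replicate 1, 2 or 3 raised the adjusted p of CTNNA1 to 0.057, 0.074 or 0.061.

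Of the tight junction and desmosome genes 23 of 24 were tested, 4 fell and 1 rose (21.7% called), and the median was -0.18. Without lentivirus-circCSPP1 replicate 1 there were 8 lower and 2 higher calls, and 7 and 2 after the loess correction. Those that fell included genes of the cytoplasmic plaque. TJP3 (zonula occludens 3) fell from 4.76 ± 0.624 to 1.45 ± 0.348 FPKM and CGN (cingulin) from 45.5 ± 2.42 to 24.3 ± 2.25 FPKM (SD, n = 3 each), with log2 fold changes of -1.24 and -0.88 and limma adjusted p of 0.0046 and 0.0040. PKP1 (plakophilin 1, of desmosomes) fell by 0.63 on the log2 scale (limma adjusted p = 0.013). CLDN1, a claudin of the tight junction strand, moved the other way, from 48.8 ± 2.82 to 80.9 ± 7.85 FPKM (log2 fold change 0.72, limma adjusted p = 0.0068). For PKP1 the adjusted p was 0.071, 0.067 and 0.062 without lentivirus-NC replicates 1, 2 and 3 and 0.062 without lentivirus-circCSPP1 replicate 3.

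Of the epithelial regulators and surface genes 9 of 17 were tested, 3 fell and 0 rose by limma (33.3% called), and the median of -0.47 was the lowest of the lists. At an unadjusted p under 0.05 there were 7 lower and 1 higher, without moderation 1 was called, without lentivirus-circCSPP1 replicate 1 there were 7 lower calls, and after the loess correction 6 lower and 1 higher. MUC1, a membrane mucin, read 22.43, 27.24 and 19.37 FPKM with lentivirus-NC and 8.49, 6.38 and 9.15 FPKM with lentivirus-circCSPP1 (log2 fold change -1.41, SE 0.17, limma adjusted p = 0.0046). SPINT1, an inhibitor of membrane serine proteases, fell from 33.6 ± 7.95 to 14.8 ± 0.499 FPKM (log2 fold change -1.10, limma adjusted p = 0.011), and ELF3, an epithelial ETS transcription factor, from 51.1 ± 3.50 to 29.4 ± 4.34 FPKM (-0.78, adjusted p = 0.010). The adjusted p of SPINT1 was 0.055 and 0.058, and that of ELF3 0.053 and 0.061, without lentivirus-NC replicates 1 and 2, and both genes lost their call without moderation.

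Among the mesenchymal effectors 16 of 25 genes were tested, 2 fell and 0 rose by limma, and the median was -0.17. The share called, 12.5%, was near the 11.4% of all tested genes. At an unadjusted p under 0.05, 5 were lower and 0 higher, without moderation 0 were called, without lentivirus-circCSPP1 replicate 1 there were 5 lower calls, and after the loess correction 4 lower and 1 higher. LOX, which cross-links collagen, fell from 5.91 ± 0.990 to 3.27 ± 0.127 FPKM and TPM2, β-tropomyosin, from 14.5 ± 1.60 to 9.04 ± 1.74 FPKM (SD, n = 3 each), with log2 fold changes of -0.68 and -0.64 and limma adjusted p of 0.020 and 0.037. For LOX the adjusted p was 0.093 without lentivirus-NC replicate 1, 0.093 without replicate 2 and 0.068 without lentivirus-circCSPP1 replicate 3, and the call was also lost without moderation. For TPM2 it was 0.14, 0.15 and 0.080 without lentivirus-NC replicates 1, 2 and 3, and 0.077 and 0.13 without lentivirus-circCSPP1 replicates 2 and 3, and TPM2 kept its call in 8 of 17 alternatives, losing it also with no filter, median-ratio scaling, quantile normalization and no moderation.

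Of the other transcription factors of the transition 9 of 16 were tested, 2 fell and 1 rose (33.3% called), and the median was 0.02. Without lentivirus-circCSPP1 replicate 1 there were 3 lower and 1 higher calls with a median of -0.02, and after the loess correction 3 in each direction. HMGA2, an architectural chromatin protein that can induce SNAI1 and TWIST1, rose from 1.98 ± 0.326 to 4.53 ± 0.973 FPKM (SD, n = 3 each; log2 fold change 0.88, limma adjusted p = 0.017). SNAI3, the third SNAI family member, fell from 3.39 ± 0.726 to 1.35 ± 0.281 FPKM (-0.90, adjusted p = 0.013), and SOX4, an HMG-box factor, from 3.72 ± 0.0577 to 2.53 ± 0.174 FPKM (-0.42, adjusted p = 0.039). Leaving out 1 library raised the adjusted p of HMGA2 to 0.080, 0.057 and 0.072 (lentivirus-NC replicates 1, 2 and 3) and 0.070 (lentivirus-circCSPP1 replicate 3), and that of SNAI3 to 0.057 and 0.051 (lentivirus-NC replicates 2 and 3) and 0.060 (lentivirus-circCSPP1 replicate 3), and both genes lost their call without moderation. For SOX4 it was 0.15, 0.14 and 0.14 without lentivirus-NC replicates 1, 2 and 3, and 0.059 and 0.14 without lentivirus-circCSPP1 replicates 2 and 3, and SOX4 kept its call in 7 of 16 alternatives, losing it also with no filter, median-ratio scaling, quantile normalization and the replicate block. The 16 genes for corepressors that ZEB and SNAI proteins recruit and for enzymes of Snail turnover were all tested and 0 were called by limma, with 1 higher and 2 lower at an unadjusted p under 0.05, 0 called without moderation, and log2 fold changes from -0.28 to 0.45. Of these 16, 2 were called higher and 1 lower without lentivirus-circCSPP1 replicate 1, and 3 higher and 1 lower after the loess correction.

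**Figure D5:**
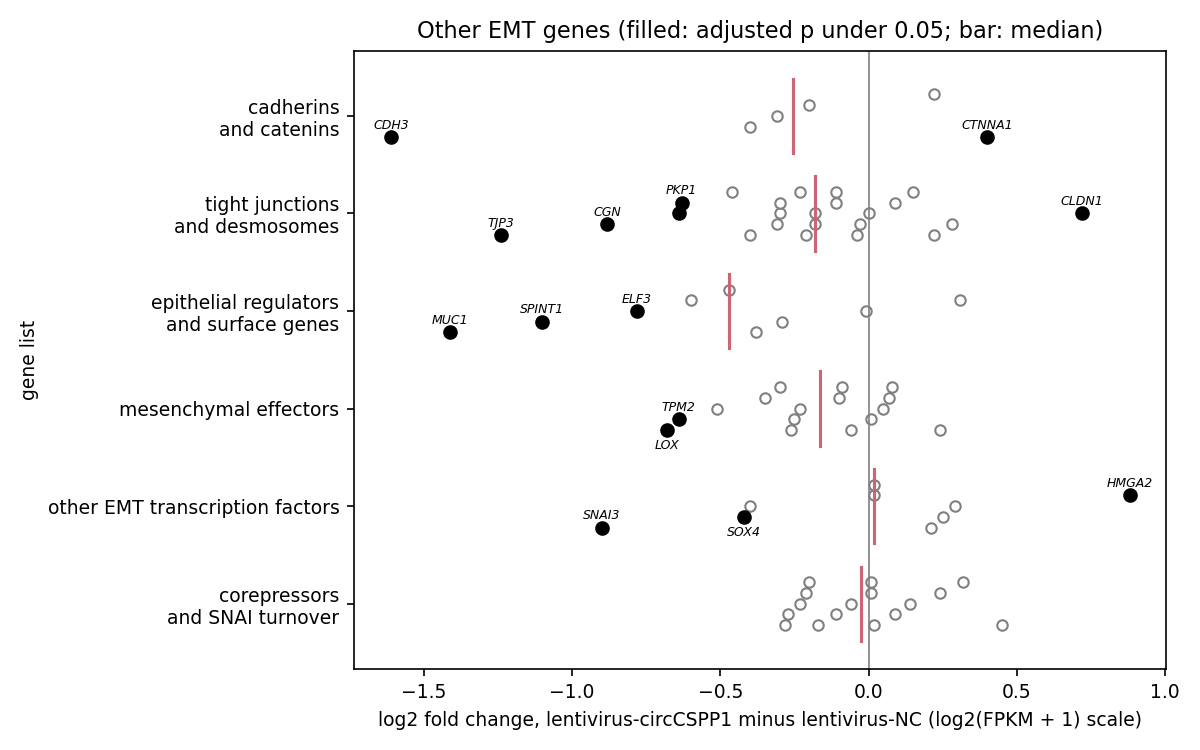
Log2 fold change, lentivirus-circCSPP1 minus lentivirus-NC on the log2(FPKM + 1) scale, on the horizontal axis for the 79 tested genes of 6 lists, with filled points for an adjusted p under 0.05, labelled where the gene is described, and a red bar for the median of each list. The filled points lie mostly left of 0, with CDH3 at -1.61 and MUC1 at -1.41, and CTNNA1, CLDN1 and HMGA2 lie right of it.

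For each called member the 3 genes of these lists with the most similar pattern were found by the root mean square difference of log2(FPKM + 1), centred on each gene's mean, over the 6 libraries and among the 79 tested genes. CDH1 was nearest to CDH3 (0.125), MUC1 (0.125) and TJP3 (0.193). The genes nearest to EPCAM included LOX (0.146) and PKP1 (0.151), and FN1 was nearest to TPM2 (0.083), ELF3 (0.101) and LOX (0.102). SNAI1 was nearest to SOX4 (0.084), ITGA5 (0.114) and TPM1 (0.119), the last pair with log2 fold changes of -0.30 and -0.35 that did not pass the test. Epithelial and mesenchymal genes were thus mixed among the neighbours of EPCAM and of FN1. With 3 libraries in each group this distance depends largely on the fold change, so the neighbours are not a result apart from the fold changes.

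Promoters were searched for the E-box CACCTG on either strand, CAGGTG on the other, which ZEB and SNAI proteins bind. The windows of 300 bases, 250 before to 50 after a start site, were from RefSeq (GRCh38.p14), and 20.6% of 35116 such windows held the motif. Of the EMT markers, CDH2, VIM, FN1, ZEB1 and ZEB2 had a window, and 2 of their 12 windows held it, both of ZEB1. CDH1, EPCAM, SNAI1, SNAI2 and TWIST1 had no window and were not searched. Of the 15 called genes of the lists 11 had a window, and 7 of their 20 windows, from 5 genes, held the motif. These 5 genes were TJP3, MUC1, SPINT1, ELF3 and the mesenchymal effector LOX, and all of them fell. Some windows of the same gene overlap and hold the same motifs. By gene the share was 45.5%, beside 24.1% of all genes with a window, and this difference was not tested. CGN, PKP1, TPM2 and SOX4 also fell, and none of their windows held the motif, nor did those of CTNNA1 and CLDN1, which rose. The ZEB1 window is shown because it held 3 motifs, with the motifs in capitals. Windows of MUC1 and ELF3 are shown as examples from the 5 genes that fell and held the motif.
ZEB1, chr10:31318966-31319265, plus strand: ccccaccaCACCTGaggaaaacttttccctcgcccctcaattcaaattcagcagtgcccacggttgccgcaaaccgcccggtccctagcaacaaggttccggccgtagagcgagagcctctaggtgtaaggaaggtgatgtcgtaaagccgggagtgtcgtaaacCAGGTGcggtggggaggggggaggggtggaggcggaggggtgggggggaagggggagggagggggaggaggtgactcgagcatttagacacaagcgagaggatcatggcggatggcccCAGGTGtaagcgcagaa
MUC1, chr1:155192860-155193159, minus strand: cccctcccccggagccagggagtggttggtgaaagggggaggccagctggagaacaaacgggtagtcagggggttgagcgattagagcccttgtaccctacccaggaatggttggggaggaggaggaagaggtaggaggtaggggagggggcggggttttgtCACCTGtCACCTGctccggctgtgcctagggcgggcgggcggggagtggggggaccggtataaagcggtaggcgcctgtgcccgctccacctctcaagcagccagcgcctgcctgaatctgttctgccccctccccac
ELF3, chr1:202010337-202010636, plus strand: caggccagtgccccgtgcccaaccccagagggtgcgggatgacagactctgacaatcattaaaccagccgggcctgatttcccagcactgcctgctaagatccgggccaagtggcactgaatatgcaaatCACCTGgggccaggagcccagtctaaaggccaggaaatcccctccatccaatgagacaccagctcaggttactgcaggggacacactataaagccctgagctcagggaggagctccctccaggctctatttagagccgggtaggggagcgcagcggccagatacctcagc

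Counted from the start site, the motifs began 242 and 85 bases before and 33 bases after it in ZEB1, 88 and 81 bases before it in MUC1 and 120 bases before it in ELF3. Binding was not measured, and a motif alone does not show that a factor acts there.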

How the data were processed

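Libraries were grouped by their labels, 3 lentivirus-NC and 3 lentivirus-circCSPP1. The authors sequenced poly(A) RNA as read pairs on an Illumina NovaSeq and deposited 1 table of FPKM values rounded to 2 decimals, so tests for counts were not used. The submitters' processing notes name hg38. The aligner, the annotation and the program that computed FPKM are not given in the sources used here. FPKM scales each library to its total, so a gene can differ because other genes take a larger or smaller share.

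Values were taken to log2(FPKM + 1). Genes averaging 1 FPKM or more were tested, two-sided and without covariates, with a trended eBayes fit in limma 3.58.1 (R 4.3.3), with Benjamini-Hochberg adjustment over all 12322 tested genes. A gene was called at an adjusted p under 0.05. The 10 members, the wider lists, written from general knowledge, and the cell type markers were chosen with earlier results of these data known. The text names all members, the genes of each wider list with an adjusted p under 0.05 (up to 4 in each direction), the 3 nearest genes of each called member, and CSPP1. Some genes that this rule or the marker lists take are not reported here. The depth was estimated from low values of short genes (1 transcript, under 800 nt), by finding the step for which FPKM times length gave whole multiples within 0.15 of a step. Fragments per gene were estimated from that depth and the transcript length. Coordinates, lengths and 3′ UTRs came from GENCODE 29 (GRCh38), which has a protein-coding transcript for 19674 of the 19727 genes, and promoters and microRNAs from RefSeq (GRCh38.p14). The fits were tested on simulated data with known changes. The labels do not say that replicate numbers pair the libraries, and the main fit did not pair them. Alternatives were other pseudocounts, filters, scalings and variance models, a loess correction for GC content and length, the replicate block, and each library left out. Python 3.11.15, pandas 2.3.3 and matplotlib 3.10.9 were used for summaries and figures.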

Additional observations from a re-analysis of the deposited data

How the results depend on the processing

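Over all tested genes 1399 were called, and as separate totals 834 without moderation, 923 with the replicate block, 3529 after the GC and length loess correction, and from 300 (without lentivirus-NC replicate 1) to 3512 (without lentivirus-circCSPP1 replicate 1) when 1 library was left out, with 317 and 407 without lentivirus-NC replicates 2 and 3 and 450 without lentivirus-circCSPP1 replicate 3. Of the members, 4 were called, 2 without moderation, 1 at the thresholds of the study, and 1 to 5 when 1 library was left out. With the replicate block 4 were called, ZEB1 gained and SNAI1 lost. Of the genes of the wider lists, 15 were called, 9 with a mean of at least 5 FPKM, 34 after the loess correction, 6 to 33 when 1 library was left out and 14 with the block. The log2 fold change of VIM turned from -0.04 to 0.0058 with median-ratio scaling, was -0.17 after quantile normalization, and ranged from -0.0805 to 0.0121 when 1 library was left out, above 0 without lentivirus-circCSPP1 replicate 2. The cause of these changes was not tested. CDH1 kept its call in all 17 alternatives.

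The labels number the replicates of both groups 1 to 3. The deviations of same-numbered libraries from their group means correlated at 0.0734, 0.0065 and 0.0572, none over 0.1. Those of differently numbered libraries correlated at -0.067 to 0.0358. Correlations this low do not decide whether same-numbered libraries were handled together. No label names a pairing, so what the blocked fit pairs is not known. With 3 libraries a group, each fit that leaves out 1 tests the remaining 2 against 3. The fits without a filter on CDH2, ZEB2, SNAI2 and TWIST1 that also changed the pseudocount, scaling, block or libraries were added after the data had been seen. With a pseudocount of 0.1 in place of 1, the log2 fold change of SNAI2 was 1.06 (limma adjusted p = 0.047).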

Other observations

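Other genes of epithelial identity and of matrix differed between the groups and are given as values, chosen after their values were seen. KRT8 and KRT18, the keratin pair of simple epithelia, fell with log2 fold changes of -1.42 and -0.85 (limma adjusted p = 0.00056 and 0.0027), from 1085.19 to 1137.92 FPKM over the lentivirus-NC libraries to 379.88 to 456.19 over the lentivirus-circCSPP1 libraries in the case of KRT8. KRT19 fell by 0.56 on the log2 scale (limma adjusted p = 0.013), while KRT7 rose with a log2 fold change of 0.45 (limma adjusted p = 0.046), from 1617.53 to 1705.88 FPKM to 1997.08 to 2753.43 FPKM. COL1A1, a fibrillar collagen chain, fell from 2.60 to 4.06 FPKM to 0.99 to 1.36 FPKM (log2 fold change -0.97, limma adjusted p = 0.010).

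Some mesenchymal genes were above 0 mainly in lentivirus-circCSPP1 replicate 2, the library with the CDH2 and TWIST1 values. SPARC, a matrix glycoprotein, read 0.42, 0 and 0 FPKM with lentivirus-NC and 0.14, 3.08 and 1.04 FPKM with lentivirus-circCSPP1. THY1, a surface glycoprotein of fibroblasts, read 0.78 FPKM in lentivirus-circCSPP1 replicate 2 and at most 0.05 in the others, and CDH11, a mesenchymal cadherin, 0.10 FPKM there and 0 in the others. CLDN4, a claudin, read 39.37 FPKM in lentivirus-NC replicate 1 and 2.17 to 7.32 in the other 5 libraries.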
